A study of Mus musculus with 4 samples.

Results

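Heat shock proteins, their co-chaperones and the polyubiquitin gene Ubb were described in stromal cells sorted from the proximal and distal ducts of the mouse prostate. The set holds 35 named genes of the 25567 that could be named in the deposited tables. It is divided here into 10 inducible cytosolic chaperones and co-chaperones, 9 largely constitutive cytosolic ones, 6 small heat shock proteins, 4 chaperones of the endoplasmic reticulum, 3 of mitochondria, 2 heat shock factors and Ubb. The members were picked by name and function, and 34 of the 35 reached the level needed for the test. The remaining member, Hspb2, was listed at 0 in every library.

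The cells came from adult C57BL/6 mice with no stated allele or treatment and were sorted by flow cytometry as Lin-CD24-CD49f-Sca-1+. These labels mean that lineage-positive cells (the lineage markers are not listed) and cells with CD24 or CD49f on their surface, as many epithelial cells have, were gated out, and that cells with Sca-1, found on many mesenchymal cells, were kept. Each duct region has 2 libraries, numbered 2 and 3 in the labels and called distal 2, distal 3, proximal 2 and proximal 3 here. No label says whether equal numbers mark shared animals or a shared day. Nor do the labels say whether animals were pooled, or whether the 2 libraries of a region came from separate animals. The error behind each p-value comes from the difference between libraries 2 and 3 within each region. It is drawn toward that of genes at a similar level, holds any difference between numbers that the regions share, and may be technical. The stated purpose of the study was to find signalling in this stroma.

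Heat shock proteins are molecular chaperones. Hsp70 and Hsp90 proteins bind and release client proteins with the help of ATP, J-domain proteins (the Dnaj genes) hand clients to Hsp70, nucleotide exchange factors release them, and small heat shock proteins hold unfolded proteins without using ATP. When unfolded protein accumulates in the cytosol, heat shock factor 1 binds heat shock elements in promoters and the inducible genes are transcribed. A separate response, the unfolded protein response, controls the chaperones of the endoplasmic reticulum, and polyubiquitin genes supply the ubiquitin that tags damaged proteins for destruction. The inducible genes are known to be transcribed quickly when tissue is warmed, handled or dissociated.

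Levels are given as FPKM, that is, fragments divided by transcript length and by the mapped fragments of the library, and were summed over each gene's transcripts. The number of genes at 1 FPKM or more lay between 10101 and 11393 per library, and 11212 genes were tested. The sources used here do not give total fragments per library, so depth is unknown. The authors' own lower and upper bounds lay a median of 4.44% to 5.26% of the value away from it for member transcripts of at least 10 FPKM, which covers estimation error within a library only. Over genes, libraries of the same number resembled each other more (Pearson r of 0.952 in both pairs, a description over genes that share a region's or a preparation's features) than libraries of the same region (0.911 for distal, 0.869 for proximal). The defining fibroblast markers Dcn, Lum, Col1a1, Col1a2 and Pdgfra summed to 3437 to 4604 FPKM, the endothelial markers to 4.54 to 5.27 and the leukocyte markers to 1.87 to 3.07, with Cd3e listed at 0 in all 4 libraries. The epithelial markers were Epcam, Cdh1, Krt5, Krt8 and Krt18. They summed to 20.99 FPKM in distal 2, 51.2 in distal 3, 26.4 in proximal 2 and 192 in proximal 3. All 5 were higher in both libraries numbered 3 than in both numbered 2, as 20.3% of all genes were.

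Chaperone and polyubiquitin transcripts were among the most abundant messages of these cells. Together the members made up 3.20% of the summed FPKM in distal 2, 3.08% in distal 3, 4.36% in proximal 2 and 4.79% in proximal 3, so both proximal libraries lay above both distal ones. That order rested on 3 genes: without Hspa1a, Hspa1b and Ubb the other 32 members made up 1.28%, 1.63%, 1.33% and 1.93% in the same order, and the regions overlapped. Ranked by mean FPKM among the 11212 tested genes, Ubb stood at place 5, Hspa1b at 6, Hspa1a at 9, Hspa5 at 17, Hspa8 at 44, Hsp90ab1 at 52 and Hsp90b1 at 101. At the low end, Hspb7, Hsf2 and Hspb6 had mean levels of 1.40, 1.47 and 2.64 FPKM.

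**Figure D1:**
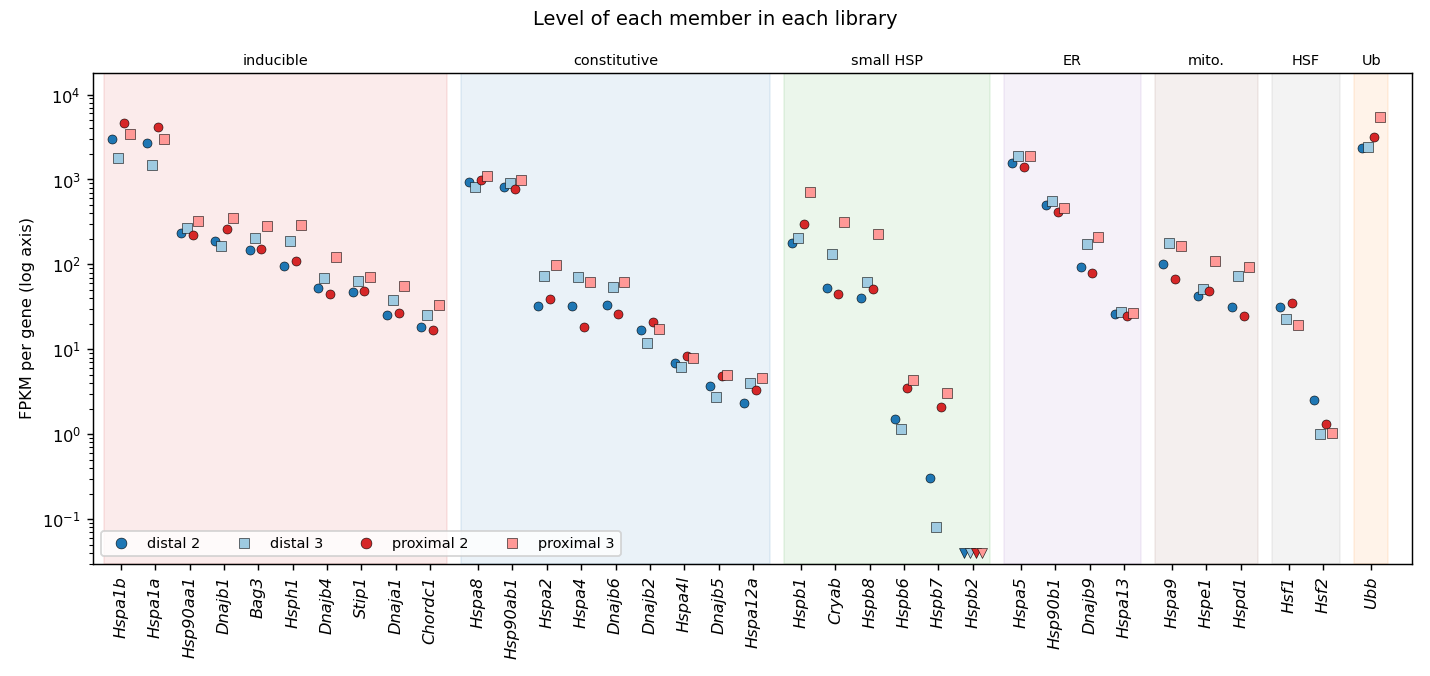
FPKM of each of the 35 members in each library on a log axis, grouped by class and ordered by mean level within a class; circles are libraries numbered 2, squares those numbered 3, blue distal and red proximal. Hspb2, drawn as triangles on the lower edge because a log axis has no 0, was listed at 0 in all 4 libraries, while Ubb, Hspa1a, Hspa1b and Hspa5 stayed above 1000 FPKM in every library.

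No member passed the test between regions with region as the only term. In limma's test on log2(FPKM + 1) with Benjamini-Hochberg adjustment over all 11212 genes, 0 of 34 members were called higher in proximal and 0 higher in distal cells, and the share of all genes called was 0% in each direction. The smallest adjusted p was 0.906 among the members (Hspb7) and 0.196 among all genes. Without adjustment, 3 of 34 members (Hspb1, Hspb6 and Hspb7) had limma p under 0.05, and all 3 were higher in proximal cells. Beside them, 2.26% of all genes (253) were higher in proximal and 0.901% (101) higher in distal cells. Hspb7 entered the test through its proximal level alone, so its direction was built into its being tested. With 2 libraries per region an exact two-sided permutation test cannot give a p below 0.333, so the values of single libraries carry the description that follows.

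Both proximal libraries lay above both distal ones for 11 of the 34 tested members (32.4%), beside 12.9% of all genes. These were Hspa1a, Hspa1b, Dnajb1, Hspa4l, Hspa8, Dnajb2, Dnajb5, Hspb1, Hspb6, Hspb7 and Ubb. Hspa1a and Hspa1b share much of their sequence, as described below, so they are not fully separate measurements. The gap was small for Dnajb2 (17.1 FPKM in distal 2 and 17.6 in proximal 3). For Hspa8 the authors' bounds overlapped (893 to 972 FPKM in distal 2 and 941 to 1024 in proximal 2). Those of Hspa4l did too (6.23 to 7.42 FPKM in distal 2 and 7.15 to 8.46 in proximal 3). For Hspb7 the count says little, since it entered the test through its proximal level alone. Among members with a mean of at least 10 FPKM the count was 7 of 28 (25%), beside 11% of the 5156 genes at that level. The opposite order was seen for Hsp90b1 alone (1 of 34), beside 8.67% of all genes and, at a mean of at least 10 FPKM, 11.7%. The authors' bounds of Hsp90b1 overlapped between regions, as given below.

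Of the 34 tested members, 26 had a log2 difference above 0, proximal minus distal, beside 60.3% of all genes. The count depended on single libraries, since without proximal 3 it was 15 of 34 and without distal 2 it was 18. The members' median difference was 0.27 on the log2(FPKM + 1) scale, beside 0.094 for all genes. Proximal 2 minus distal 2 gave a median of 0.072 for the members and 0.11 for all genes, and proximal 3 minus distal 3 gave 0.41 and 0.081. The regional difference of the set lay mainly in the libraries numbered 3. The sign was the same within both numbers for 24 of 34 members (70.6%), close to the 67% of all genes. By scaling, the median of all genes moved from 0.094 to -0.027 under quantile normalization and -0.011 under median ratio scaling, and the share of all genes above 0 moved from 60.3% to 46.8% and 48.7%, while 25 and 21 of the 34 members stayed above 0.

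**Figure D2:**
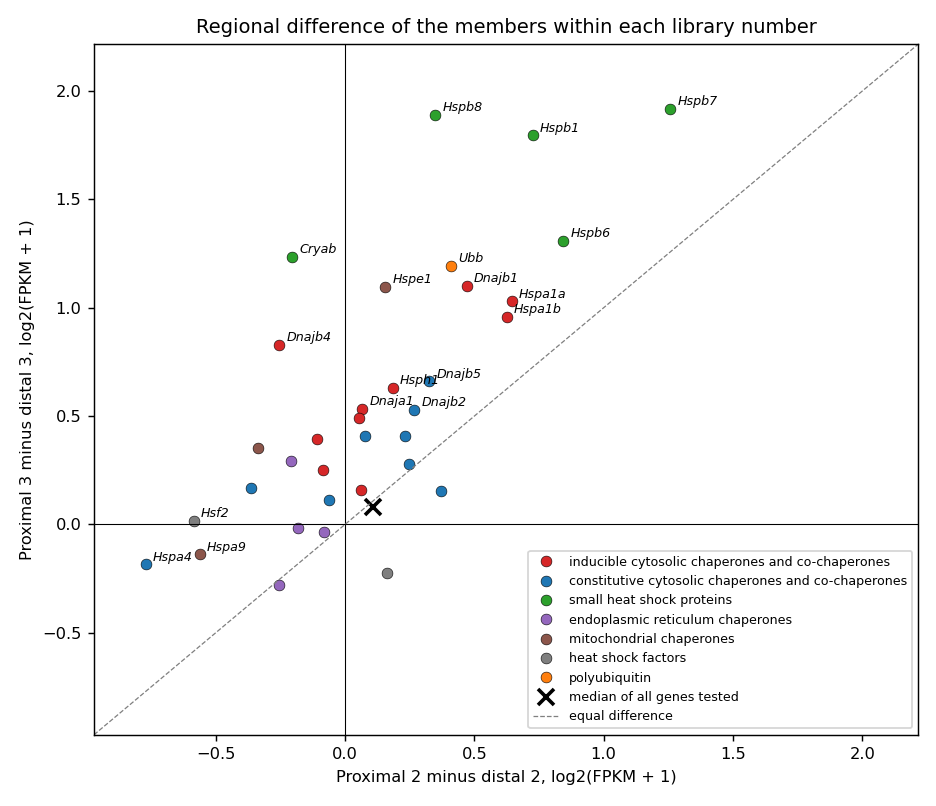
Regional difference of each tested member on the log2(FPKM + 1) scale within libraries numbered 2 (horizontal axis) and within those numbered 3 (vertical axis), coloured by class; the cross is the median of all genes tested and the dashed line marks equal differences. Hspb7, Hspb6, Hspb1, Hspa1a, Hspa1b, Dnajb1 and Ubb lie above 0.4 on both axes, whereas Cryab, Dnajb4 and Hspe1 have differences of 1.24, 0.83 and 1.10 within number 3 and of -0.20, -0.25 and 0.16 within number 2.

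Among the inducible cytosolic genes, the Hsp70 pair was the most abundant. Hspa1a and Hspa1b encode the classic stress-inducible Hsp70 and are neighbours on chromosome 17 (Hspa1a at 34969190 to 34972156 and Hspa1b at 34956436 to 34959238 of mm10, both on the minus strand). Hspa1a stood at 2672 FPKM in distal 2, 1474 in distal 3, 4174 in proximal 2 and 3009 in proximal 3. Hspa1b stood at 2974, 1788, 4589 and 3474 FPKM in the same order. Every proximal library was above every distal one for both copies, and the ratio of Hspa1b to Hspa1a stayed between 1.10 and 1.21.

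The copies share long stretches in which a fragment cannot be assigned to either of them. Of the 50-base words in the Hspa1a coding sequence, 82.3% also occur in that of Hspa1b, and of those in the whole transcript 58.8% do. Their summed level does not depend on how shared fragments were divided. It was 5646 FPKM in distal 2, 3262 in distal 3, 8764 in proximal 2 and 6483 in proximal 3, or 4454 ± 1686 in distal and 7623 ± 1612 in proximal cells (mean ± SD, n = 2), a ratio of 1.71. On a log2 scale the sum was higher in proximal cells by 0.63 within number 2 and by 0.99 within number 3. The pair held 2.23% of all summed FPKM in proximal 2 and 0.835% in distal 3, the extremes of the 4 libraries. In limma's test the log2 difference was 0.84 ± 0.46 (SE) for Hspa1a and 0.79 ± 0.44 for Hspa1b, with unadjusted p of 0.126 and 0.127 and an adjusted p of 0.99991 for both. Without distal 3 the differences were 0.41 and 0.42, and without distal 2 they were 1.27 and 1.16. An annotated gene model, Gm20481, overlaps Hspa1a, and the library kit does not mark strand.

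The promoters of the pair are shown because the copies had the same order of libraries. That of the small heat shock gene Hspb1, described below, is added because it carries the same kind of element. Whether the element bears on the order of libraries was not tested. Promoter sequences are from RefSeq (GRCm38.p6, the same assembly as mm10), 250 bases before the start site, 5′ to 3′ on the gene's strand. Capitals mark each match to a heat shock element of 2 units, GAANNTTC or TTCNNGAA searched on both strands. Hspa1a spans chr17:34972157-34972406 (minus strand), Hspa1b chr17:34959239-34959488 (minus strand) and Hspb1 chr5:135887669-135887918 (plus strand).
Hspa1a: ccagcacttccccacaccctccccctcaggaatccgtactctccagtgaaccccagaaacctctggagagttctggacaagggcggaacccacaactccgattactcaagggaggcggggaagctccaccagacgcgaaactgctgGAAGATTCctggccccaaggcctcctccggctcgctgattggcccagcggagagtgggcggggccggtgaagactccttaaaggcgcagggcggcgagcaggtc
Hspa1b: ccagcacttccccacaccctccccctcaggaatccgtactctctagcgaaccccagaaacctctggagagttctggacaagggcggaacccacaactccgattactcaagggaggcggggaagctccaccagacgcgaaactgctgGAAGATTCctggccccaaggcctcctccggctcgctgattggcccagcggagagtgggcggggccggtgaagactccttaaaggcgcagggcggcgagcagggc
Hspb1: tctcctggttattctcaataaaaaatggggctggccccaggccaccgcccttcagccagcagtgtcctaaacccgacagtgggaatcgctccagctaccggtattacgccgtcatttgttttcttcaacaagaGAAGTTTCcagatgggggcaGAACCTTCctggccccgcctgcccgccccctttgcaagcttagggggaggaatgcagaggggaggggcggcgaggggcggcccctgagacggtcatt
The Hspa1a and Hspa1b windows are identical at 247 of 250 bases (98.8%), and in both the match lies 104 to 97 bases before the start site. Hspb1 has 2 matches, 117 to 110 and 97 to 90 bases before its start.

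Over the whole table, 32851 windows of 250 bases before to 50 after a start site were searched, from 27025 genes. The table had no entry for Hspa8, Hspa9, Hspa13, Hspb2, Cryab, Hsp90aa1, Hsp90ab1 and Hsf1. The 2-unit element was found in 15.1% of windows (17% of genes) and, among the 27 members with a window, in 13. These were 7 of 9 inducible genes (Hspa1a, Hspa1b, Hsph1, Dnaja1, Dnajb4, Bag3 and Chordc1), 1 of 7 constitutive genes (Dnajb6), 3 of 4 small heat shock genes (Hspb1, Hspb6 and Hspb8), both mitochondrial genes with a window (Hspd1 and Hspe1), and none of the 3 endoplasmic reticulum genes, Hsf2 or Ubb. The longer 3-unit element, GAANNTTC followed by NNGAA or TTCNNGAA followed by NNTTC on either strand, which contains 2-unit matches, was found in 0.603% of windows (198) and in 5 members: Hsph1, Chordc1, Dnajb6, Hspd1 and Hspe1. The matches of Hspd1 and Hspe1 are the same bases read from opposite strands, so these counts hold a single stretch for both genes. Of the members with a 2-unit match, the regions did not overlap for Hspa1a, Hspa1b, Hspb1 and Hspb6 and overlapped for all others. Dnajb1, Hspa4l, Dnajb2, Dnajb5, Hspb7 and Ubb had both proximal libraries above both distal ones without a match. A match is a stretch of letters, not a measured binding site, and classes were set from knowledge of inducibility, so the share among inducible genes is a description. Stretches with overlapping matches are shown for Hspe1 (chr1:55088057-55088078, plus strand, in an exon of its head-to-head neighbour Hspd1) and Chordc1 (chr9:18292261-18292287, plus strand, across the start site).
Hspe1: cgTTCTAGAACCTTCCGGAAgg
Chordc1: cgGAACGTTCGGGAAAATTCCTGAAgc

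**Figure D3:**
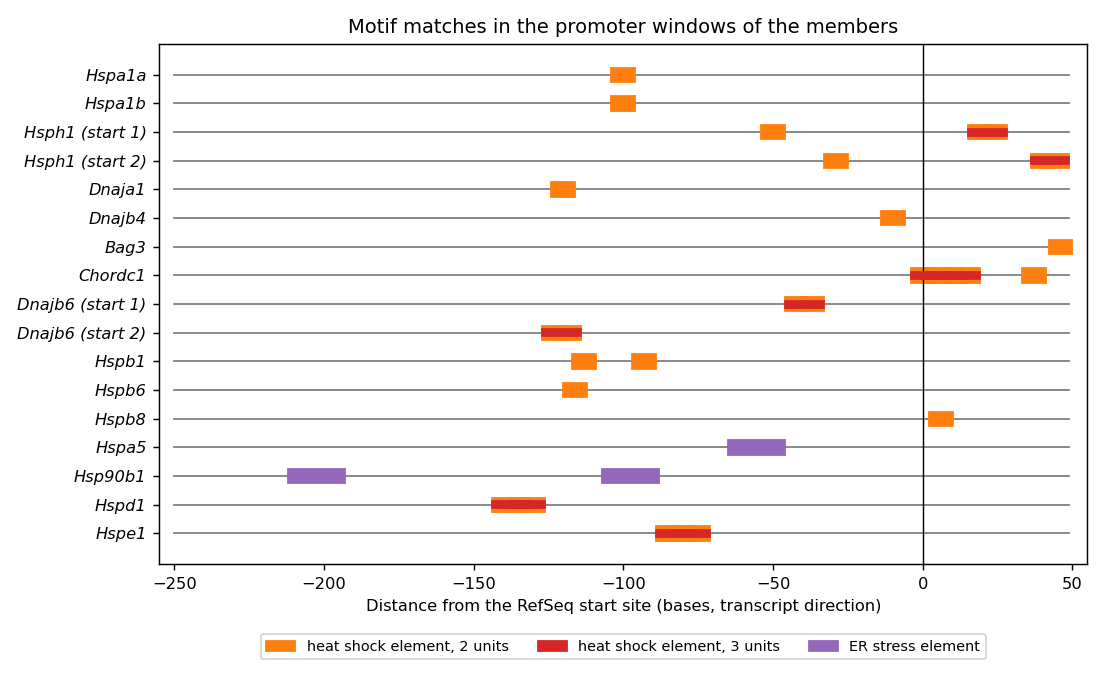
Matches to the heat shock elements of 2 and 3 units and to the endoplasmic reticulum stress element in the promoter windows of the members that hold any, by distance from the RefSeq start site in bases; each grey line is a window of 300 bases. The matches of Hspa1a and Hspa1b lie at the same distance, 104 to 97 bases before the start, and those to the endoplasmic reticulum stress element occur in Hspa5 and Hsp90b1 only among the windows drawn.

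Dnajb1, the J-domain partner that delivers clients to inducible Hsp70, stood at 189.7 FPKM in distal 2, 165 in distal 3, 263 in proximal 2 and 355 in proximal 3. Its regions did not overlap, the ratio of means was 1.74 and the log2 difference was 0.79 ± 0.32, but it did not pass (limma unadjusted p = 0.0577, adjusted p = 0.99991). Within number 2 the difference was 0.47 and within number 3 it was 1.10. Hsp90aa1, the inducible cytosolic Hsp90, stood at 234, 271, 221 and 323 FPKM in the same order of libraries, with a log2 difference of 0.085 ± 0.34 that turned to -0.040 under median ratio scaling. Its regions overlapped, with proximal libraries at both ends of the range.

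The remaining inducible genes followed the library number rather than the region. Hsph1, an Hsp110 that exchanges nucleotide on Hsp70, stood at 95.7 FPKM in distal 2, 188 in distal 3, 109 in proximal 2 and 291 in proximal 3. Bag3, an exchange factor that links Hsp70 with small heat shock proteins and autophagy, stood at 147, 204, 152 and 287 FPKM. Dnajb4, another J-domain protein, stood at 53.1, 69.0, 44.4 and 123 FPKM. In all 3 genes both libraries numbered 3 were above both numbered 2, and the regions overlapped.

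Dnaja1, a farnesylated J-domain protein, stood at 25.6, 38.4, 26.9 and 56.1 FPKM in the order distal 2, distal 3, proximal 2 and proximal 3. Stip1, the adaptor that joins Hsp70 to Hsp90, stood at 46.8, 64.3, 48.9 and 72.0 FPKM, and Chordc1, an Hsp90 co-chaperone, at 18.2, 25.4, 16.8 and 33.7 FPKM. Again the libraries numbered 3 were the higher pair. Over the 10 inducible genes the regional log2 differences were all above 0, beside 60.3% of all genes. They lay between 0.085 (Hsp90aa1) and 0.84 (Hspa1a) with a median of 0.29, but Hsp90aa1 and Stip1 turned below 0 under median ratio scaling (-0.040 and -0.012). Without proximal 3 the median of the class was -0.18. Of the 10, Hspa1a, Hspa1b and Dnajb1 had both proximal libraries above both distal ones, as 12.9% of all genes did. The other 7 were higher in both libraries numbered 3, as 20.3% of all genes were.

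Of the classes, the small heat shock proteins had the largest median log2 difference, 1.12 over 5 tested members. All 5 were above 0, beside 60.3% of all genes, but Hspb7 was tested through its proximal level alone. The median was the value of Hspb8, which was 0.047 without proximal 3. Hspb1, which binds unfolded proteins and actin filaments, stood at 179 FPKM in distal 2, 207 in distal 3, 297 in proximal 2 and 721 in proximal 3. Its regions did not overlap, though the proximal libraries themselves differed by more than the distal and proximal libraries numbered 2 did. Proximal cells had a mean of 509 ± 300 FPKM and distal cells 193 ± 19.7 (SD, n = 2), a ratio of 2.64 and a log2 difference of 1.26 ± 0.49 (SE, limma unadjusted p = 0.0493, adjusted p = 0.99991). Without proximal 3 the log2 difference was 0.62, and without proximal 2 it was 1.90.

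Hspb6 and Hspb7, known mainly from muscle and heart, were scarce. Hspb6 stood at 1.52 FPKM in distal 2, 1.16 in distal 3, 3.52 in proximal 2 and 4.35 in proximal 3, a ratio of means of 2.94. Hspb7 stood at 0.306, 0.0799, 2.12 and 3.08 FPKM, a ratio of means of 13.5. Both were higher in both proximal libraries, and Hspb7 was the member that was at least 2-fold higher on the log2(FPKM + 1) scale within both numbers, as 1.91% of all genes (214) were. The log2 differences were 1.08 ± 0.40 for Hspb6 (limma unadjusted p = 0.0411, adjusted p = 0.99991) and 1.59 ± 0.39 for Hspb7 (unadjusted p = 0.00837, adjusted p = 0.906). Because values were tested as log2(FPKM + 1), these understate the change of genes so low: with 0.1 in place of 1 they were 1.49 and 3.30, and with 10 they were 0.30 and 0.30, none past the test. Hspb7 passed the level filter through its proximal values alone, so a difference was built into its being tested. Summed smooth muscle markers, a cell type known to express both genes, were 312 FPKM in distal 2, 188 in distal 3, 275 in proximal 2 and 134 in proximal 3, in both numbers the lower in proximal cells. The 6 smooth muscle markers did not share a direction: their log2 differences ran from -1.10 for Actg2, with both proximal libraries below both distal ones, to 0.93 for Myh11, with both above (5.11, 2.79, 12.3 and 5.32 FPKM in the order distal 2, distal 3, proximal 2 and proximal 3), and 2 of the 6 were above 0. None of the 6 passed the test, and their part in the values of Hspb6 and Hspb7 was not tested.

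Hspb8, which works with Bag3 in autophagy of unfolded protein, stood at 40.0 FPKM in distal 2, 61.4 in distal 3, 51.3 in proximal 2 and 230.04 in proximal 3. Cryab (αB-crystallin), the small heat shock protein that guards desmin and other filaments, stood at 52.1, 133, 45.1 and 314 FPKM. For both genes proximal 3 was far above the other 3 libraries and the regions overlapped. The log2 difference of Cryab was 0.52 ± 0.99 (limma adjusted p = 0.99991), with -0.20 within number 2 and 1.24 within number 3, and that of Hspb8 was 1.12 ± 0.75, with 0.35 and 1.89. Without proximal 3 they were -0.87 and 0.047. The summed epithelial markers had the same order of libraries as Hspb8, with proximal 3 first and distal 3 second, and differed from Cryab in the last 2 places. Whether epithelial cells or their RNA contributed to these values was not tested, and in bulk samples fewer cells of a type and less RNA per cell cannot be told apart. Hspb2 lies head to head with Cryab and overlaps it on the opposite strand. It was listed at 0 in all 4 libraries, while fragments there cannot be assigned by strand.

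**Figure D4:**
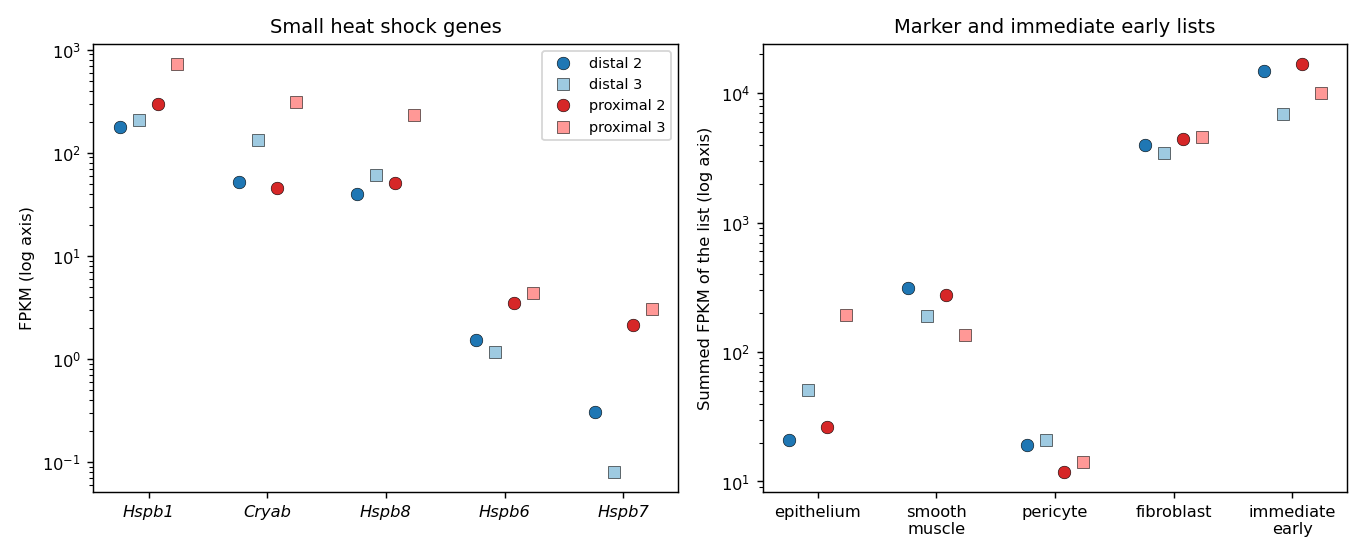
Left, FPKM of the 5 small heat shock genes above 0 in each library; right, summed FPKM of 4 marker lists and of the immediate early genes; both axes are logarithmic, and colours and symbols are those of the library key. Hspb6 and Hspb7 separate the regions in both numbers, whereas Cryab, Hspb8 and the epithelial sum (192 FPKM) are highest in proximal 3.

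Among the constitutive cytosolic genes, Hspa8 and Hsp90ab1 were the most abundant. Hspa8, the constitutive Hsc70 that folds new proteins and uncoats clathrin vesicles, stood at 932.5 FPKM in distal 2, 817 in distal 3, 983 in proximal 2 and 1085 in proximal 3. The regions did not overlap, but the ratio of means was 1.18 and the log2 difference of 0.24 ± 0.32 was smaller than its error. Hsp90ab1, the constitutive Hsp90, stood at 814, 900.4, 779 and 973 FPKM, with proximal libraries at both ends and a log2 difference of 0.024 ± 0.33 that turned to -0.10 under median ratio scaling.

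Dnajb2 and Dnajb5, J-domain partners of Hsp70, had non-overlapping regions at modest levels. Dnajb2 stood at 17.1 FPKM in distal 2, 11.9 in distal 3, 20.8 in proximal 2 and 17.6 in proximal 3, and Dnajb5 at 3.66, 2.77, 4.84 and 4.96 FPKM. With the leading transcript alone, the log2 difference of Dnajb2 went from 0.40 to 0.85 and that of Dnajb5 turned from 0.49 to -0.66; with span and length matches alone Dnajb5 gave 1.43. Hspa4l, an Hsp110 relative, stood at 6.82, 6.26, 8.29 and 7.81 FPKM, the last gene of this class whose regions did not overlap. Its authors' bounds did overlap between distal 2 and proximal 3, as given above.

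The other 4 constitutive genes, like Hsp90ab1, were higher in both libraries numbered 3, as 20.3% of all genes were. Hspa2, an Hsp70 best known from sperm development, stood at 32.7 FPKM in distal 2, 73.9 in distal 3, 38.6 in proximal 2 and 98.4 in proximal 3. Dnajb6, which suppresses protein aggregates, stood at 33.6, 54.7, 25.9 and 61.5 FPKM, with a log2 difference of -0.099 that was -2.17 with the leading transcript alone. Hspa12a, a distant Hsp70 relative, stood at 2.34, 4.03, 3.32 and 4.60 FPKM. Hspa4, an Hsp110 that exchanges nucleotide on Hsp70, stood at 32.2, 70.6, 18.5 and 62.0 FPKM and had the most negative log2 difference of the set, -0.48 ± 0.69 (limma adjusted p = 0.99991). A shorter transcript inside Hspa4 (chromosome 11, 53299348 to 53300478) could not be named by the rule and held 22.0 FPKM in distal 2, 31.7 in proximal 2 and 0 in the libraries numbered 3. With it added, a step chosen after the data were seen, Hspa4 stood at 54.2, 70.6, 50.1 and 62.0 FPKM, and its log2 difference was -0.15. The difference between numbers shrank from 1.11 to 0.37 in distal and from 1.69 to 0.30 in proximal cells.

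Chaperones of the endoplasmic reticulum were abundant and close to equal between regions. Hspa5 (BiP), the Hsp70 of that compartment and sensor partner of the unfolded protein response, stood at 1571 FPKM in distal 2, 1911 in distal 3, 1387 in proximal 2 and 1889.8 in proximal 3, with a log2 difference of -0.10 ± 0.37. Hsp90b1 (GRP94), the resident Hsp90, stood at 499, 563, 418 and 464 FPKM. It was the member with both proximal libraries below both distal ones, at a ratio of means of 0.830. The authors' bounds overlapped between regions (478 to 520 FPKM in distal 2 and 444 to 483 in proximal 3). Its differences were -0.26 within number 2 and -0.28 within number 3 (log2 difference -0.27 ± 0.31, limma adjusted p = 0.99991). Hspa13, a microsomal Hsp70 relative, stood at 26.2, 27.5, 24.7 and 26.8 FPKM, the narrowest range, relative to its level, of the tested members. Dnajb9 (ERdj4), a J-domain protein induced by the unfolded protein response, stood at 92.5, 171, 79.9 and 210.5 FPKM, following the library number. Its log2 difference of 0.042 turned to -0.082 under median ratio scaling. The class median was -0.078, against 0.29 for the inducible cytosolic genes, a difference between classes that was not tested.

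Hspa5 and Hsp90b1 share another promoter element, the endoplasmic reticulum stress element, CCAAT followed by CCACG after 9 bases of any kind, searched on both strands and chosen after their values had been seen. It was found in 0.119% of all windows (39), and among the members in Hspa5 and in Hsp90b1, which has it at 2 places. The stretches are chr2:34772020-34772048 (plus strand, 70 to 42 bases before the start site, within an annotated Hspa5 exon) and, on the minus strand, chr10:86705633-86705661 and chr10:86705528-86705556. Capitals mark the element, in reverse complement in the last sequence.
Hspa5: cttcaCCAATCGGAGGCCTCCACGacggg
Hsp90b1, farther from the start site: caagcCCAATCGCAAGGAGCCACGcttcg
Hsp90b1, nearer to the start site: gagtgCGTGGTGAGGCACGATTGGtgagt

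The mitochondrial chaperones were all higher in both libraries numbered 3, as 20.3% of all genes were. Hspd1 (Hsp60), which forms the folding chamber of the matrix, stood at 31.1 FPKM in distal 2, 72.2 in distal 3, 24.4 in proximal 2 and 92.6 in proximal 3, and Hspe1 (Hsp10), its lid, at 43.0, 50.8, 48.0 and 109.6 FPKM. Hspa9 (mortalin), the Hsp70 of the import motor, stood at 100.3, 179, 67.6 and 163 FPKM. The regions overlapped for all 3, and their log2 differences were 0.0085 ± 0.75 for Hspd1 (below 0 under each of 3 other scalings), 0.63 ± 0.47 for Hspe1 (0.039 without proximal 3 and 1.21 without proximal 2) and -0.35 ± 0.55 for Hspa9. Hspd1 and Hspe1 overlap head to head, so some fragments near their shared start cannot be told apart without strand.

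Of the heat shock factors, Hsf1, the main activator of the heat shock response, stood at 31.1 FPKM in distal 2, 22.5 in distal 3, 34.99 in proximal 2 and 19.1 in proximal 3. Hsf2, a relative that pairs with it, stood at 2.50, 0.9997, 1.33 and 1.03 FPKM. They were the members with both libraries numbered 3 below both numbered 2, opposite to most of the chaperones but as 50.3% of all genes were. For Hsf2 the authors' bounds overlapped between proximal 2 (1.05 to 1.62 FPKM) and proximal 3 (0.777 to 1.27). The log2 differences of Hsf1 and Hsf2 between regions were -0.031 ± 0.43 and -0.28 ± 0.45 (limma adjusted p = 0.99991 for both). Hsf1 is regulated mainly as a protein, which these data do not measure.

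Ubb encodes a chain of ubiquitin repeats and is induced by stress. It stood at 2362 FPKM in distal 2, 2397 in distal 3, 3141 in proximal 2 and 5486 in proximal 3, both proximal libraries above both distal ones, with a ratio of means of 1.81 and a log2 difference of 0.80 ± 0.43 (limma unadjusted p = 0.12, adjusted p = 0.99991). Without proximal 3 the difference was 0.40, and without proximal 2 it was 1.20. Much of the excess of proximal 3 came from a single transcript model that was given 1781 FPKM there and 0 in the other 3 libraries. The longest model (1165 bases) alone stood at 1357, 1380, 1744 and 1364 FPKM, with overlapping regions and a log2 difference of 0.17. A model of 918 bases stood at 1006, 1017, 1397 and 2341 FPKM, with both proximal libraries above both distal ones. The models overlap in position, so how fragments were divided among them is uncertain. Rps27a, which encodes ubiquitin joined to a ribosomal protein, stood at 16.6, 15.3, 13.8 and 22.2 FPKM in the order distal 2, distal 3, proximal 2 and proximal 3, and its regions overlapped.

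The library number separated 22 of 34 members (64.7%) and the region 12 (35.3%), beside 70.6% and 21.6% of all genes, but the direction by number differed from that of most genes. Both libraries numbered 3 were above both numbered 2 for 20 of 34 members (58.8%), beside 20.3% of all genes, and below for 2 (Hsf1 and Hsf2), beside 50.3% of all genes. At a mean of at least 10 FPKM the counts were 19 of 28 (67.9%), beside 27.3% of genes, and 1 of 28, beside 42.3%. The median difference, 3 minus 2, was 0.22 for the members in distal and 0.55 in proximal cells, beside -0.31 and -0.36 for all genes. Cryab had the largest difference in both regions (1.33 in distal and 2.77 in proximal cells). It was followed in distal cells by Hspd1 (1.19), Hspa2 (1.15) and Hspa4 (1.11, reduced as described above) and in proximal cells by Hspb8 (2.14), Hspd1 (1.88) and Hspa4 (1.69, likewise). The Hsp70 pair had differences below 0 within both regions, -0.86 and -0.47 for Hspa1a and -0.73 and -0.40 for Hspa1b. Its level in proximal 3 was still above that in distal 2, so the numbers overlapped for the pair, whereas the co-chaperones Hsph1, Bag3, Dnaja1, Dnajb4, Stip1 and Chordc1 were higher in both libraries numbered 3 than in both numbered 2. The labels do not say what the numbers mark, and no test was made of this difference.

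**Figure D5:**
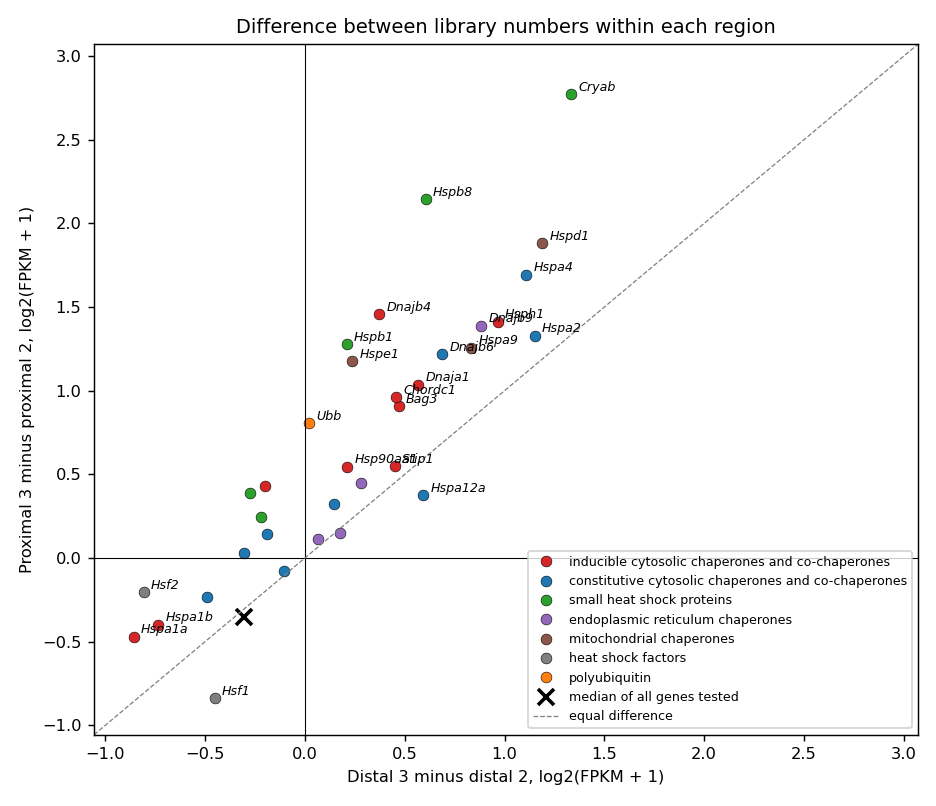
Difference between the libraries numbered 3 and 2 on the log2(FPKM + 1) scale in distal (horizontal axis) and proximal cells (vertical axis) for each tested member, coloured by class; the cross is the median of all genes tested (-0.31 and -0.36) and the dashed line marks equal differences. Most members lie above 0 on both axes, with Cryab farthest at 1.33 and 2.77, while Hspa1a, Hspa1b, Hsf1, Hsf2, Dnajb2 and Hspa4l lie below 0 on both.

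Related genes outside the set were measured beside it, from lists chosen by function, and none of their members was called in either direction by limma at an adjusted p under 0.05. Of 27 other Hsp70 and Hsp90 co-chaperones, 5 had both proximal libraries above both distal ones and 1 below, beside 12.9% and 8.67% of all genes, with a median log2 difference of 0.12. The most different were Dnaja2, a J-domain protein, at 79.1, 145, 46.0 and 118 FPKM (-0.53) and Hspbap1, a binding partner of Hspb1, at 1.28, 0.927, 1.72 and 2.32 FPKM (0.52), in the order distal 2, distal 3, proximal 2 and proximal 3. The 8 subunits of TRiC, the cytosolic chaperonin that folds actin and tubulin, had a median of -0.27 with no subunit separating the regions, and all 8 were higher in both libraries numbered 3, as 20.3% of all genes were. Tcp1 and Cct3 had its largest differences, -0.43 and -0.33. Of 8 other mitochondrial folding factors and proteases, 6 were lower in both libraries numbered 3, as 50.3% of all genes were. Among these, Clpp, a matrix protease, and Timm44, an import motor anchor, had regional differences of 0.49 and 0.39.

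Among 23 genes of endoplasmic reticulum folding and the unfolded protein response, 2 had both proximal libraries above both distal ones and 4 below. These counts stand beside 12.9% and 8.67% of all genes, and the median log2 difference was -0.11. The 2 with both proximal libraries above were also the most different of the list. Ppp1r15a (GADD34), a phosphatase subunit induced by many stresses, stood at 423, 237, 627 and 481 FPKM (0.79), and Ddit3 (CHOP), a stress transcription factor, at 21.04, 26.6, 32.5 and 46.8 FPKM (0.70). Ppp1r15a had the same order of libraries as Hspa1a and Hspa1b, proximal 2 first and distal 3 last.

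Immediate early genes, which cells transcribe within minutes of a stimulus or of handling, were measured because they share that property with the inducible heat shock genes. Their summed level was 14727 FPKM in distal 2, 6940.1 in distal 3, 16645 in proximal 2 and 10051 in proximal 3. In each number the proximal library was the higher, and the libraries numbered 2 were both above those numbered 3. The summed level of Hspa1a and Hspa1b was also higher in proximal 2 than in proximal 3 and in distal 2 than in distal 3. The inducible class did not share this order, since 7 of its 10 genes were higher in both libraries numbered 3. Of the 16 tested immediate early genes, 3 had both proximal libraries above both distal ones, 2 below, and 9 were lower in both libraries numbered 3. The shares of all genes were 12.9%, 8.67% and 50.3%. Fos stood at 2084, 519, 3311 and 1399 FPKM (log2 difference 1.05 ± 0.80) and Fosb at 235, 201, 385 and 459 FPKM (0.95 ± 0.31, limma unadjusted p = 0.0264, adjusted p = 0.99991). The part of handling and sorting in these levels was not tested.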

How the data were processed

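Total RNA of 4 libraries of sorted cells was converted to cDNA with random and oligo-dT primers, amplified and sequenced, per the labels' protocols; the kit does not mark strand. The submitters' processing notes name mm10, TopHat2 0.6, Cufflinks 0.0.6 and bcl2fastq 1.8.3; the sources used here do not give their settings. Per the file headers, each deposited table holds, for every transcript, its FPKM with 2 bounds, a status and a coverage signal, the last not used. FPKM holds no counts, so no count model was used.

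GENCODE M21 gave names to the 63241 transcripts by position, by a span and length score of at least 0.8 with any rival gene under 0.8 of it, else by both ends within 100 bp of exons of a single gene, else by an overlap score of at least 0.5 with rivals under 0.25. This named 54872 transcripts (86.77%, with 96.16% of summed FPKM) in 25567 genes. The leading transcripts of all 35 members overlap the RefSeq gene of the same symbol. FPKM was summed per gene, and 7 genes with a failed or capped estimate were left out; none of the 85 member transcripts had one. Genes at 1 FPKM or more in at least 2 of 4 libraries were tested with limma 3.58.1 in R 4.3.3 (region only, empirical Bayes with trend) on log2(FPKM + 1), two-sided, Benjamini-Hochberg adjusted, threshold 0.05. The fit was run on simulated data with independent noise in each library and no shared difference between library numbers. A set recovery was required only at a spread below that of these data. The rest was done in Python 3.11.15 with matplotlib 3.10.9, pandas 2.3.3 and numpy 2.4.6. All 35 members are named, and of each other list the 2 tested genes with the largest absolute difference, except that some results on other ubiquitin genes are not reported here; Actg2 and Myh11 were chosen after their values were seen. Alternatives were other pseudocounts, filters, scalings, naming rules, transcripts, a block for the library number and each library left out. The members and lists were chosen with earlier results of these data known.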

Additional observations from a re-analysis of the deposited data

How the results depend on the processing

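In limma's fit, 0 members were called in either direction under every alternative tried except the replicate block, that is, the library number added as a block. With that block 2 members were called higher in proximal cells, Hspb6 (limma adjusted p = 0.0446) and Hspb7 (adjusted p = 0.016). Of all genes, 2.71% (304) were called higher in proximal and 1.31% (147) higher in distal cells, against 0 of all genes without the block. Both members are scarce, with means of 2.64 FPKM for Hspb6 and 1.40 for Hspb7. Hspb7 entered the test through its proximal level alone, so its direction was built in. The labels do not say that the numbers are shared; deviations of same-numbered libraries from their region's mean had a correlation of 0.815 over genes, with only 2 pairs. Single results turned under median ratio scaling (Hsp90aa1 -0.040, Stip1 -0.012, Hsp90ab1 -0.10, Dnajb9 -0.082, Hspd1 -0.11), under quantile normalization (Hspd1 -0.046), when rescaled to equal sums (Hspd1 -0.0028) and with the leading transcript alone (Dnajb5 -0.66, Hsf1 0.14), which also moved Ubb from 0.80 to 0.17. With span and length matches alone Ubb had no value. Leaving out each library in turn, the log2 difference ranged from -0.18 to 0.73 for Bag3, -0.34 to 0.62 for Chordc1, -0.87 to 1.90 for Cryab, -0.22 to 0.82 for Dnaja1, -0.44 to 1.02 for Dnajb4, -0.71 to 0.51 for Dnajb6, -0.65 to 0.74 for Dnajb9, -0.45 to 0.39 for Hsf1, -0.69 to 0.12 for Hsf2, -0.19 to 0.36 for Hsp90aa1, -0.14 to 0.18 for Hsp90ab1, -0.033 to 0.56 for Hspa12a, -0.34 to 0.98 for Hspa2, -1.32 to 0.37 for Hspa4, -0.32 to 0.13 for Hspa5, -0.98 to 0.28 for Hspa9, -0.93 to 0.95 for Hspd1, -0.30 to 1.11 for Hsph1 and -0.16 to 0.38 for Stip1. Without a change of sign it ranged from 0.41 to 1.27 for Hspa1a, 0.42 to 1.16 for Hspa1b, 0.15 to 0.64 for Dnajb2, 0.15 to 0.34 for Hspa8, 0.62 to 1.90 for Hspb1, 0.047 to 2.19 for Hspb8 and 0.039 to 1.21 for Hspe1. The class medians ranged from -0.18 to 0.67 (inducible), -0.033 to 0.37 (constitutive), 0.62 to 1.90 (small), -0.33 to 0.062 (endoplasmic reticulum), -0.93 to 0.95 (mitochondrial), -0.47 to 0.16 (heat shock factors) and 0.40 to 1.20 (Ubb), and that of all members from -0.15 to 0.60. Without distal 2 and without distal 3, 40 and 26 of all genes were called, none of them a member. A region left with a lone library is assumed to vary like the other. Hspa1a, Hspa1b, Dnajb1, Dnajb2, Hspa4l, Hspa8, Hspb1, Hspb6, Hspb7, Hspb8, Hspe1 and Ubb stayed above 0, and Hsp90b1 and Hspa13 below 0, under every alternative that gave them a value. The cause of these changes was not tested, other than fewer libraries where one was left out. Without counts, depth sets no limit that could be computed here.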
